A study of Rattus norvegicus with 6 samples.

Results

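The genes described here serve protein folding in the endoplasmic reticulum (ER), the removal of misfolded proteins from it (ER-associated degradation, ERAD) and the unfolded protein response (UPR). Their list was chosen for these functions, with earlier results of these data known. It holds 35 genes, out of 37209 gene symbols in the deposited count table. Of these, 34 were found by symbol, with the ER oxidase genes listed under the older names Ero1l and Ero1lb. The remaining gene, Derl2, was found as LOC100910823, a numeric identifier that RefSeq assigns to it. After a filter on low counts, 34 of the 35 were tested, and the gene left out was Derl3, a derlin gene with 1 count over the CSE libraries and 1 over the controls. The cells were primary wild-type bone marrow mesenchymal stem cells (BMSCs) from rat femur, stromal progenitors of bone, cartilage and fat. In 3 libraries the cells had received 3% cigarette smoke extract (CSE, medium through which smoke has been drawn) for 6 h, and in 3 control libraries serum-free medium for 6 h. Total RNA was sequenced. How many animals were used, and whether replicate libraries stem from separate cultures, was not given in the sources used here. The p-values therefore reflect variation among these particular libraries alone, which could be technical.

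Secretory and membrane proteins enter the ER through the Sec61 channel, receive glycans and disulfide bonds, and fold with the HSP70 protein BiP (Hspa5), the HSP90 protein GRP94 (Hsp90b1) and the lectins calnexin and calreticulin. When unfolded proteins accumulate, the membrane sensors IRE1 (Ern1), ATF6 and PERK (Eif2ak3) are activated. IRE1 splices Xbp1 mRNA into the form that encodes an active transcription factor, ATF6 is cut in the Golgi to release another, and PERK slows translation. XBP1 and ATF6 raise chaperone and ERAD genes, and ERAD returns misfolded proteins to the cytosol for the proteasome. Stromal cells that make bone matrix secrete large amounts of collagen and depend on this machinery. A count per gene adds spliced and unspliced Xbp1 mRNA, so the splicing step itself was not measured.

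Promoter sequence is shown first, because the response elements of the UPR are what many of these genes are known to share. Since that was known beforehand, the shares below describe the members and are no independent test. RefSeq promoter windows of the rat build GRCr8, from 250 bases before the annotated start site to 50 from it on, were used for 26 of the 35 genes (27 windows, since Hyou1 has more than 1). The ER stress response element (ERSE), bound by ATF6 together with NF-Y, was searched as the exact letters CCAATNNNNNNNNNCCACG on both strands. It was present in 21 of the 33468 windows searched (0.0627%) and in windows of 7 of the 26 genes (26.9%). The related element ERSE-II, searched as ATTGGNCCACG, was present in 17 windows (0.0508%) and in 2 of the 26 genes, Herpud1 and Hyou1. No member window held both. The occurrences are shown on the strand that reads CCAAT (or ATTGG) first, with 6 flanking bases on each side and the fixed letters of the element in capitals. Where a gene has more than 1 occurrence, the distance of its first base from the start site is given after the name.
Hspa5: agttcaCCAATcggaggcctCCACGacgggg
Hsp90b1 −176: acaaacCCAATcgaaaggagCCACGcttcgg
Hsp90b1 −72: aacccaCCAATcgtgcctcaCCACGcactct
Creld2: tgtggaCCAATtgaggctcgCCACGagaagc
Xbp1: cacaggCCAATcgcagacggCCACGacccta
Ero1lb: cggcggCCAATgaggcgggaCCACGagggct
Calr: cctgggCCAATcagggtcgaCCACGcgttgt
Derl3: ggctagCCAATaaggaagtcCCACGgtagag
Hyou1 −188: ctgcggATTGGcCCACGtcacgg
Hyou1 −88: gtccccATTGGgCCACGtagaag
Herpud1: gcgctgATTGGgCCACGttgggc
The ERSE positions in GRCr8 were Hspa5 at chr3:38452973-38452991 (gene on the + strand), Hsp90b1 at chr7:23012451-23012469 (gene on the - strand), Hsp90b1 at chr7:23012347-23012365 (gene on the - strand), Creld2 at chr7:121789239-121789257 (gene on the + strand), Xbp1 at chr14:84604558-84604576 (gene on the + strand), Ero1lb at chr17:92941458-92941476 (gene on the + strand), Calr at chr19:40213135-40213153 (gene on the + strand) and Derl3 at chr20:12766601-12766619 (gene on the - strand). The ERSE-II positions were Hyou1 at chr8:53602694-53602704 (gene on the + strand), Hyou1 at chr8:53602794-53602804 (gene on the + strand) and Herpud1 at chr19:10614821-10614831 (gene on the - strand). In Hspa5, Xbp1, Herpud1 and the distal Hsp90b1 occurrence the element read in the direction of the gene, and in the others against it. The 2 occurrences of Hsp90b1 face each other in the stretch below (chr7:23012337-23012479, gene on the - strand), and those of Hyou1 both read against the gene (chr8:53602684-53602814, gene on the + strand). Both stretches are printed in the direction of the gene, so that an element that reads against it appears as CGTGG before ATTGG, or CGTGG before CCAAT for ERSE-II.
Hsp90b1: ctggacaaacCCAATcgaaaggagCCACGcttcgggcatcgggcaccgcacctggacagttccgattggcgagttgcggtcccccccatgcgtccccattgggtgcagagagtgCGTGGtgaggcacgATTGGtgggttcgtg
Hyou1: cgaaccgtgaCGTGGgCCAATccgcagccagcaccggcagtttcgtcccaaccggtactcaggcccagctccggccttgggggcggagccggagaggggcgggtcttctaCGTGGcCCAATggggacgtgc
The core of the unfolded protein response element, TGACGTG, was present in Hspa5, Hyou1 and Erp29, 3 of 26 genes against 1.81% of the windows, and in Hyou1 it overlapped the distal ERSE-II. The element in Hspa5 lay 135 bases upstream of the start site. Elements of other stress pathways were no more frequent than elsewhere. The heat shock element GAANNTTCNNGAA was in none of the 26 genes (0.798% of windows), the antioxidant response element TGACNNNGC in 3 (12.1% of windows) and the amino acid response element TGATGNAA in 1 (3.98% of windows). These matches describe letters in a short window and say nothing about binding.

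**Figure D1:**
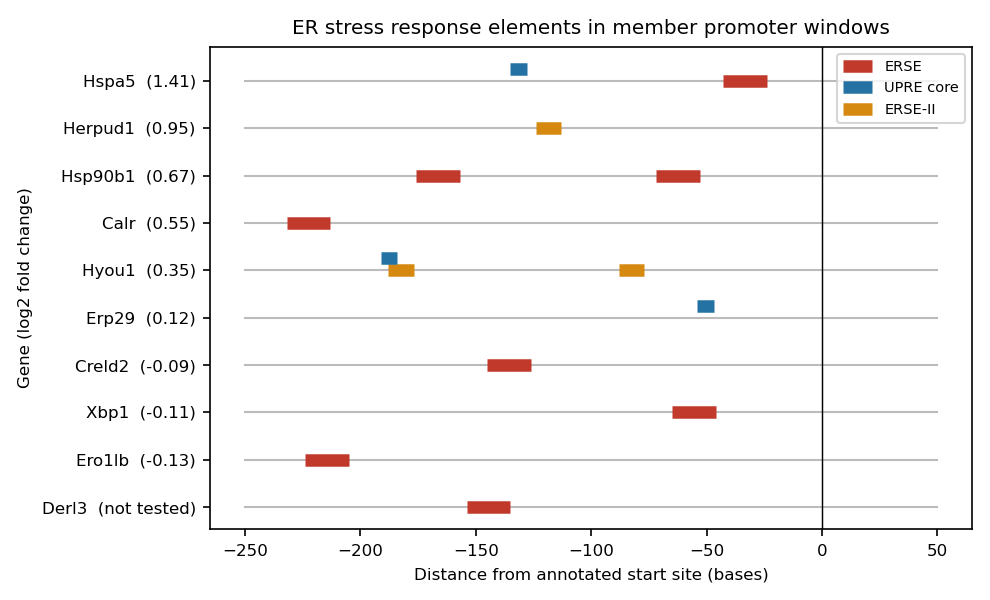
Positions of ERSE (red), ERSE-II (orange) and UPRE core (blue, drawn slightly above the line) matches in the promoter windows of the 10 members found to hold any of them, with distance from the annotated start site in bases on the x axis and each gene's log2 fold change of CSE over control after its name. Genes with an element range from Hspa5 at 1.41 to Ero1lb at −0.13, and Derl3 was not tested.

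Library totals ranged from 19433637 to 22589327 counts with CSE and from 15958621 to 18651194 in the control, so CSE libraries were the deeper ones. A level is given as CPM, the count of a gene relative to the size of its library after scaling with TMM factors (edgeR's normalization for composition), which were 0.932 to 0.944 with CSE and 1.06 to 1.07 in the control. The mesenchymal label was checked with 13 stromal markers. All 13 had counts, and Col1a1 averaged 28797 CPM in the control. With CSE 4 of them were called higher and 6 lower, 5 by at least 1.5-fold, from Cxcl12 at −2.17 to Vcam1 at 2.51. Their summed level was 31900 to 33234 CPM with CSE and 32906 to 36035 CPM in the control. Macrophage transcripts were also present. The summed level of 13 macrophage markers was 1845 to 1909 CPM with CSE and 1674 to 1723 CPM in the control, mostly from Lyz2, and Cd163 was listed at 0. Of the 12 macrophage markers tested, 3 were called higher and 4 lower, with a median log2 fold change of −0.10. Lyz2 was higher by 0.27 and Csf1r and Cd14 were lower, at −0.25 and −1.45. Of the other marker lists, the B and plasma cell markers Cd79a and Ms4a1, the red cell markers Alas2, Hba-a1 and Hbb, the neutrophil markers S100a9 and Elane and the endothelial marker Emcn were at 0. The 11 B and plasma cell markers summed to 257 to 268 CPM with CSE and 295 to 304 CPM in the control, almost entirely from Sdc1, which is also a proteoglycan of stromal cells. The part of the stromal and macrophage marker changes in the results below was not tested. In bulk RNA, fewer cells of a type and less RNA per cell cannot be told apart.

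With TMM scaling, ER folding genes were mostly higher with CSE, by modest factors. The largest rises were those of the sensor gene Ern1, the oxidase gene Ero1l and the BiP gene Hspa5. At an adjusted p of 0.05, 21 of the 34 tested members rose, 3 fell and 10 did not pass. The share that passed in either direction, 70.6%, lay near the 73.9% of all 13390 tested genes. The split by direction did not: 61.8% of members were called higher, where 36.3% of all genes were, and 8.82% were called lower, where 37.5% were. The median log2 fold change of members was 0.24, against −0.02 over all tested genes. Members were chosen with earlier results of these data known, so these differences are a description and no test. Large changes were not more common than elsewhere, since 3 members rose at least 2-fold (8.82%, background 10.7%) and 6 at least 1.5-fold (17.6%, background 20.3%). The remaining 15 rises were smaller than 1.5-fold. No member fell 2-fold (background 14.4%), and 1 fell at least 1.5-fold (background 24.6%). In 22 members every CSE library lay above every control library (background 37.2%), in 5 every CSE library lay below (background 38.6%), and in 7 the groups overlapped. Over all tested genes the groups were fully apart in 75.8%. These counts hold for TMM factors, and with total counts alone 15 members were called higher and 10 lower (background 28% and 47.2%).

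**Figure D2:**
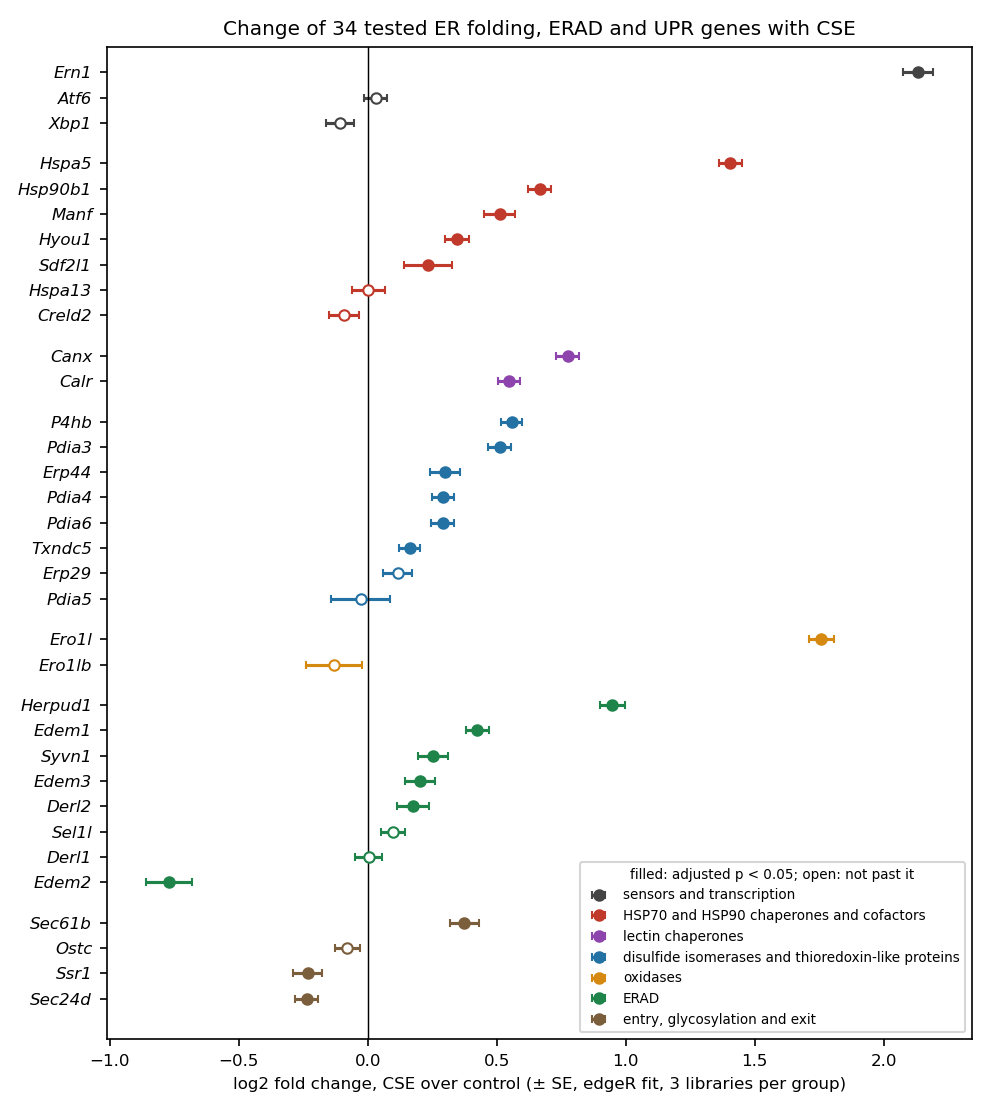
Log2 fold change of CSE over control for the 34 tested members, grouped by role, with the standard error as a bar, from edgeR's fit to 3 libraries per group. Filled points passed an adjusted p of 0.05 and open points did not. Ern1 (2.13), Ero1l (1.76) and Hspa5 (1.41) stand to the right of the rest, and Edem2 (−0.77) stands to the left.

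The members together held more of the sequenced RNA with CSE. Their summed counts were 1.67%, 1.64% and 1.64% of all counts in the CSE libraries and 1.26%, 1.24% and 1.23% in the control libraries, so the groups did not overlap. The means were 1.65% ± 0.0181 and 1.245% ± 0.0162 (SD, n = 3, exact 2-sided permutation p = 0.1, the smallest this design allows), a ratio of 1.33. Hspa5 alone made up 16.5% ± 0.275 of the member counts with CSE and 9.41% ± 0.344 in control libraries (SD, n = 3). Without Hspa5 the other members held 1.38% ± 0.0152 and 1.13% ± 0.0154 of all counts (SD, n = 3). These shares rest on total counts and involve no TMM factor.

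Among the sensors and their transcription factor, the mRNA of Ern1 rose and those of Atf6 and Xbp1 did not pass. Ern1 encodes IRE1, the kinase and endoribonuclease that splices Xbp1. It was at 129, 130.1 and 139.7 CPM with CSE and at 31.3, 30.6 and 29.1 CPM in the control. All 3 CSE libraries were more than 4 times as high as any control library. The fold change was 4.38 (log2 2.13 ± 0.06 SE, edgeR adjusted p = 2.3e-15), and 96.6% of all tested genes had a log2 fold change at or below that of Ern1. Xbp1, which encodes the transcription factor made from the spliced mRNA, was at 156, 149.8 and 135 CPM with CSE and at 158, 156 and 160.0 CPM in the control. Every CSE library was below every control library, though by little, and the log2 fold change of −0.11 ± 0.05 missed the threshold (edgeR adjusted p = 0.084). Without CSE replicate 1 it passed as lower (−0.14, edgeR adjusted p = 0.029). Atf6 was at 177, 185 and 183 CPM with CSE and at 174, 175 and 184 CPM in the control, overlapping groups (log2 0.03 ± 0.05, edgeR adjusted p = 0.57). The ratio of Ern1 to Xbp1 counts within a library, which no scaling affects, was 4.72 times as high with CSE, and that of Ern1 to Atf6 was 4.29 times as high. This within-library ratio was computed for 12 pairs of related genes, chosen after their values were seen, and in each of them the CSE and control libraries did not overlap. For each pair the exact 2-sided permutation p was 0.1, the smallest that 3 libraries against 3 allow, and 0.1 after Benjamini-Hochberg adjustment over the 12. Because the pairs were chosen knowing their values, the missing overlap and this p do not count as a test of them.

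Of the 7 genes of HSP70 and HSP90 chaperones of the ER and their cofactors, 5 rose and 2, Hspa13 and Creld2, did not pass. Over all tested genes 36.3% were called higher and 37.5% lower. Hspa5 encodes BiP, which holds unfolded chains and also keeps the sensors inactive. It was at 2968, 2820 and 2948 CPM with CSE and at 1131, 1044 and 1120 CPM in the control. The groups lay far apart, and the fold change was 2.65 (log2 1.41 ± 0.04, edgeR adjusted p = 1.5e-14). Hsp90b1, which encodes GRP94, the ER chaperone of integrins and Toll-like receptors, was at 2346, 2294 and 2173 CPM with CSE and at 1500, 1380 and 1409 CPM in the control. It rose 1.59-fold (log2 0.67 ± 0.05, edgeR adjusted p = 4.5e-10), less than Hspa5. The ratio of Hspa5 to Hsp90b1 was 1.67 times as high with CSE. Manf, a secreted ER stress protein that binds BiP, rose 1.43-fold from 163 ± 16.7 to 233 ± 6.71 CPM (SD, n = 3). Hyou1, the large HSP70 relative GRP170 that exchanges nucleotide on BiP, rose 1.27-fold from 251 ± 7.10 to 320 ± 9.42 CPM. Both had every CSE library above every control library.

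Sdf2l1, which encodes a BiP cofactor that limits aggregation, was at 32.5, 25.2 and 31.3 CPM with CSE and at 22.6, 26.0 and 27.1 CPM in the control. The groups overlapped because CSE replicate 2 lay within the control range. Its log2 fold change of 0.24 ± 0.09 passed narrowly (edgeR adjusted p = 0.031). That call ended when CSE replicate 1 (adjusted p = 0.15), CSE replicate 3 (0.10), control replicate 1 (0.14) or control replicate 2 (0.051) was left out of the edgeR fit. Hspa13, a microsomal HSP70-like ATPase gene, had overlapping groups at 43.5 ± 1.05 and 43.5 ± 2.72 CPM (SD, n = 3, log2 0.00 ± 0.06, edgeR adjusted p = 0.98). Creld2, an ER stress-inducible gene of a disulfide isomerase-like protein, was at 50.6, 46.4 and 50.2 CPM with CSE and at 53.3, 50.7 and 52.9 CPM in the control. All 3 CSE libraries were lower, but the log2 fold change of −0.09 ± 0.06 missed the threshold (edgeR adjusted p = 0.17). Of the 6 tested members with an ERSE, 3 were called higher (background 36.3%), among them Hspa5. Creld2, Xbp1 and Ero1lb did not pass.

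Both lectin chaperone genes, whose products hold glycoproteins until they are folded, rose. Canx, the gene of membrane-bound calnexin, was at 1545, 1575 and 1607 CPM with CSE and at 969, 918 and 877 CPM in the control, a 1.71-fold rise (log2 0.77 ± 0.04, edgeR adjusted p = 5.2e-11). Calr, the gene of its soluble relative calreticulin, was at 2155, 2005 and 1999 CPM with CSE and at 1395, 1417 and 1404 CPM in the control, a 1.46-fold rise (log2 0.55 ± 0.04, edgeR adjusted p = 2.6e-09). The groups of neither gene overlapped. The ratio of Canx to Calr was 1.17 times as high with CSE.

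Of the 8 genes for disulfide isomerases and thioredoxin-like proteins, which form and rearrange disulfide bonds, 6 rose, none fell and 2 did not pass. The background was 36.3% called higher and 37.5% called lower. All 6 rises were below 1.5-fold. P4hb, which encodes protein disulfide isomerase and is also a subunit of the collagen prolyl hydroxylase, rose 1.47-fold from 1363 ± 13.1 to 2008 ± 56.3 CPM (SD, n = 3). Pdia3, whose product ERp57 works with calnexin and calreticulin, rose 1.43-fold from 1014 ± 51.2 to 1447 ± 24.0 CPM. Erp44, which retains the ER oxidases, Pdia4 and Pdia6 rose by log2 fold changes of 0.30 ± 0.06, 0.29 ± 0.04 and 0.29 ± 0.04. Txndc5 was higher by 0.16 ± 0.04 (edgeR adjusted p = 0.0022). The chaperone-like Erp29 was at 48.4, 49.8 and 52.2 CPM with CSE and at 46.2, 46.5 and 46.1 CPM in the control. Its CSE libraries were all the higher ones, and the log2 fold change of 0.12 ± 0.06 missed the threshold (edgeR adjusted p = 0.079), though it passed with RLE factors (edgeR adjusted p = 0.043) and without CSE replicate 1. The sign of Erp29 turned with upper-quartile factors (−0.0208) and with total counts alone (−0.0725), and it passed with neither. Pdia5 had overlapping groups and a wider error (log2 −0.03 ± 0.11, edgeR adjusted p = 0.84).

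The paralogous oxidases, which pass electrons from protein disulfide isomerase to oxygen and yield hydrogen peroxide, differed. Ero1l, the broadly expressed gene, was at 313, 317 and 333 CPM with CSE and at 94.6, 98.2 and 92.2 CPM in the control. It rose 3.38-fold without overlap (log2 1.76 ± 0.05, edgeR adjusted p = 2.8e-15). Ero1lb was at 9.96, 11.2 and 9.97 CPM with CSE and at 12.2, 11.2 and 10.6 CPM in the control, where the groups overlapped and the log2 fold change of −0.13 ± 0.11 missed the threshold (edgeR adjusted p = 0.28). The ratio of Ero1l to Ero1lb was 3.70 times as high with CSE.

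Of the 8 tested ERAD genes 5 rose and 1 fell (background 36.3% and 37.5%). Herpud1, which encodes a short-lived scaffold of the ERAD ligase complex, was at 233, 218 and 214 CPM with CSE and at 114, 115 and 116 CPM in the control. It rose 1.93-fold (log2 0.95 ± 0.05, edgeR adjusted p = 1.1e-11), the largest rise of the ERAD members in this fit. Syvn1, which encodes the ligase HRD1, rose from 53.0 ± 1.83 to 63.2 ± 2.56 CPM (SD, n = 3, log2 0.25 ± 0.06, edgeR adjusted p = 6.8e-04). Sel1l, the gene of the HRD1 partner that receives substrates, had all 3 CSE libraries above the control libraries, but its log2 fold change of 0.10 ± 0.05 missed the threshold (edgeR adjusted p = 0.070). It passed as higher with RLE factors (edgeR adjusted p = 0.034), with DESeq2 (adjusted p = 0.037) and without CSE replicate 1 (edgeR adjusted p = 0.049). Its sign turned with upper-quartile factors (−0.0381) and with total counts alone (−0.0898), and it passed with neither.

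The EDEM genes, whose products trim mannose from misfolded glycoproteins and mark them for ERAD, moved apart. Edem1 was at 417, 437 and 444 CPM with CSE and at 324, 328 and 315 CPM in the control and rose 1.34-fold (log2 0.42 ± 0.04, edgeR adjusted p = 1.3e-07). Edem2, whose product takes the first mannose in this trimming, was at 15.56, 12.98 and 13.18 CPM with CSE and at 23.8, 24.6 and 22.8 CPM in the control. Every CSE library was far below every control library, a fall by 0.77 on the log2 scale (SE 0.09, edgeR adjusted p = 5.5e-07). Edem3 rose by 0.20 ± 0.06 (edgeR adjusted p = 0.0038). The ratio of Edem1 to Edem2 was 2.30 times as high with CSE and that of Edem1 to Edem3 1.16 times. Among the derlin genes, which encode membrane proteins of the ERAD exit path, Derl1 had overlapping groups (log2 0.00 ± 0.05, edgeR adjusted p = 0.94). Derl2 was at 51.4, 57.5 and 55.8 CPM with CSE and at 50.8, 48.0 and 46.9 CPM in the control, a rise by 0.18 ± 0.06 (edgeR adjusted p = 0.016). This call ended without CSE replicate 2 (0.069), control replicate 2 (0.063) or control replicate 3 (edgeR adjusted p = 0.081). Derl3 was at or below 0.0589 CPM in every library, which is under the 0.142 to 0.177 CPM that 3 counts amount to, so no fold change is given.

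**Figure D3:**
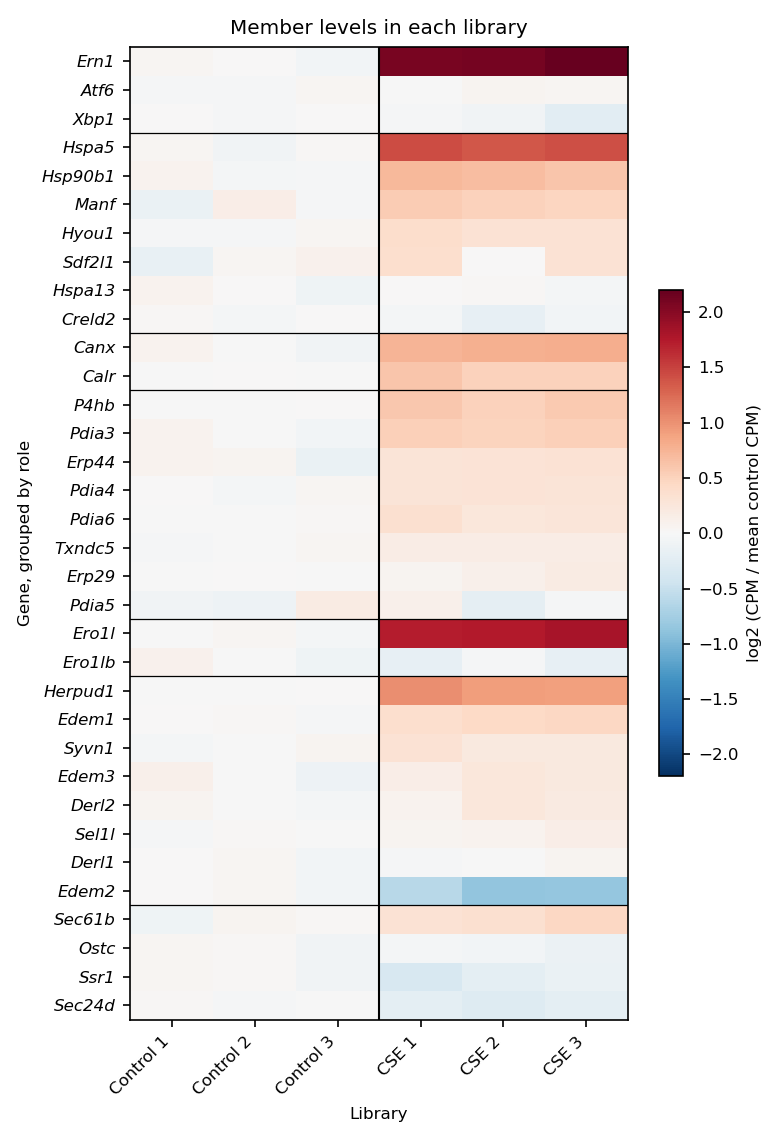
Level of each tested member in each of the 6 libraries, as the log2 ratio of its CPM to the mean of the 3 control libraries (colour scale), with genes in rows by role and libraries in columns. The CSE columns are alike for Ern1, Hspa5, Ero1l and Herpud1, whereas Sdf2l1 in CSE replicate 2 has the colour of the control columns.

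Of the 4 genes of protein entry, glycosylation and exit, 1 rose and 2 fell, where 36.3% of all genes were called higher and 37.5% lower. Sec61b, the gene of a small subunit of the translocation channel, rose from 115 ± 6.74 to 150 ± 7.66 CPM (SD, n = 3, log2 0.38 ± 0.06, edgeR adjusted p = 9.6e-06). Ssr1, a subunit gene of the translocon-associated TRAP complex, was at 270.1, 299 and 313 CPM with CSE and at 357, 353 and 327 CPM in the control. It fell by 0.23 (SE 0.06, edgeR adjusted p = 0.0011), without overlap. Ssr2, the gene of another TRAP subunit, rose by 0.30 ± 0.05, and the ratio of Ssr2 to Ssr1 was 1.45 times as high with CSE. Ostc, an oligosaccharyltransferase subunit gene, had overlapping groups (log2 −0.08 ± 0.05, edgeR adjusted p = 0.15), and passed as lower without control replicate 3 (−0.13, edgeR adjusted p = 0.030). Sec24d, which encodes a cargo adaptor of the COPII coat needed for procollagen export, was at 204, 193 and 204 CPM with CSE and at 241, 231 and 236 CPM in the control. All CSE libraries were lower, a fall by 0.24 (SE 0.05, edgeR adjusted p = 1.7e-04). The adaptor paralogs Sec24a and Sec24b rose by 0.67 ± 0.06 and 0.98 ± 0.05, and the ratio of Sec24b to Sec24d was 2.33 times as high with CSE.

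How many weak members are called depends on the scaling of the libraries. Upper-quartile factors moved the median log2 fold change of all tested genes by −0.14 and total counts alone by −0.19, and the member values moved with it. With upper-quartile factors 16 members were called higher and 8 lower (background 30.2% and 44.7%), and with total counts alone 15 and 10 (background 28% and 47.2%). The share of rises among called members went from 87.5% to 66.7% and 60.0%, and that among all called genes went from 49.2% to 40.3% and 37.2%. The member median lay 0.26 above the median of all tested genes under each of the 4 scalings (TMM, RLE, upper quartile, total counts). Against a 1.2-fold change, 13 members were called higher and 1 lower (background 27.8% and 29.7%). Under each of these scalings 15 of the 21 rises and all 3 falls were called. The 6 rises not called under at least 1 of them were Derl2, Edem3, Erp44, Sdf2l1, Syvn1 and Txndc5, and of these Derl2 (−0.01) and Txndc5 (−0.03) turned sign with total counts alone. Atf6, Hspa13 and Derl1, near 0 with TMM, were at −0.16, −0.19 and −0.18 with total counts alone and passed as lower there. Xbp1 (−0.24 and −0.29), Creld2 (−0.23 and −0.28), Ero1lb (−0.27 and −0.32) and Ostc (−0.21 and −0.27) were called lower with upper-quartile factors and with total counts alone. With TMM factors 26 of 34 members lay above the median of all genes.

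**Figure D4:**
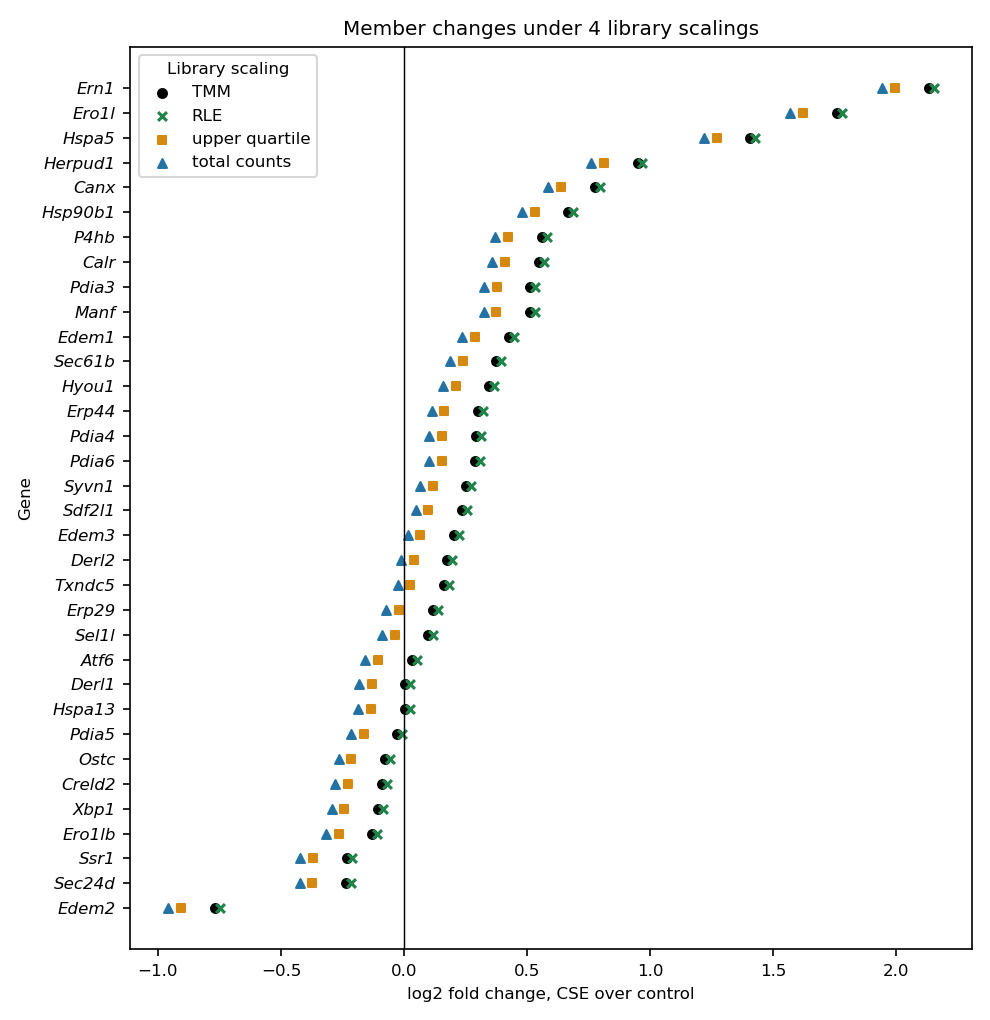
Log2 fold change of CSE over control (x axis) of each tested member under 4 scalings of the library size: TMM (black circles), RLE (green crosses), upper quartile (orange squares) and total counts (blue triangles). The order of the genes is kept while the values shift together, and members from Derl2 down lie at or below 0 with total counts.

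The genes were also grouped by the regulator they are usually ascribed to. Of 9 tested members ascribed to ATF6, 6 rose and 3 missed the threshold (median 0.29). Of 10 genes ascribed to XBP1, among them 5 members, 8 rose and 2 fell, with a median of 0.36 (over all genes 36.3% were called higher and 37.5% lower, with a median of −0.02). The second list includes Dnajb9, an ER J-domain gene that is no member, which rose from 35.3 ± 4.65 to 111 ± 8.37 CPM (SD, n = 3, log2 1.66 ± 0.08, edgeR adjusted p = 4.3e-12). Among members whose promoter was searched, 8 tested genes with an ERSE or ERSE-II had 5 rises, no fall and a median of 0.45, and 17 without either had 10 rises, 2 falls and a median of 0.18. Ern1 (2.13) and Ero1l (1.76), the members with the largest rises, had no window searched and are in neither group. These splits are descriptions, and no difference between them was tested.

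The rest of the secretory pathway was described with 11 further lists that exclude the members, in which 142 genes were tested. Of these 92 rose (64.8%) and 22 fell (15.5%), where 36.3% of all tested genes were called higher and 37.5% lower. The median of the 142 genes was 0.25, close to the 0.24 of the members. The counts of the separate lists below stand beside the same background. The PERK arm had the highest median of these lists, 1.53, and all 6 of its genes rose. The PERK gene Eif2ak3 was at 74.9, 73.3 and 73.5 CPM with CSE and at 31.2, 33.4 and 34.3 CPM in the control (log2 1.16 ± 0.06, edgeR adjusted p = 7.8e-12). Ppp1r15a, Ddit3 and Trib3, listed as outputs of this arm, rose by 3.63 ± 0.07, 2.82 ± 0.07 and 1.89 ± 0.06. Only Ern1 among the members exceeded Trib3, and none exceeded Ppp1r15a or Ddit3. PERK activity was not measured, and whether PERK raised these genes was not tested. Of the other sensor genes and their proteases, 2 rose and 4 fell. Creb3l2, which encodes an ER-anchored transcription factor of cartilage secretion, fell by 1.40 (SE 0.06), Creb3l1, its osteoblast relative, fell by 0.30 (SE 0.05), and Wfs1 rose by 0.89 ± 0.06.

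Genes that complete ERAD on the cytosolic side and in the membrane were mostly higher. Of 28 tested genes of recognition, ubiquitination and extraction 22 rose and 2 fell (median 0.40, background 36.3% higher and 37.5% lower). Vcp, which encodes the ATPase that pulls substrates from the membrane, was at 1205, 1172 and 1196 CPM with CSE and at 557, 554 and 572 CPM in the control (log2 1.09 ± 0.04, edgeR adjusted p = 1.7e-13). Its cofactor gene Ufd1l and its membrane anchor gene Ubxn4 rose 2.30-fold and 2.45-fold. Rnf5, an ER membrane ligase gene, fell by 0.90 (SE 0.10). The J-domain proteins that feed BiP and its exchange factor Sil1 had 7 of 8 genes higher and none lower (median 0.36), including Dnajc25 (0.96 ± 0.06) and Dnajc3 (0.78 ± 0.05).

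Of 20 other thiol and prolyl folding factors 12 rose and 2 fell (background 36.3% and 37.5%). The collagen chaperone gene Serpinh1 rose from 3823 ± 77.7 to 5971 ± 189 CPM (SD, n = 3), P4ha1, whose product pairs with that of P4hb in collagen prolyl hydroxylase, rose by 0.69 ± 0.05, and Fkbp14 fell by 0.66 (SE 0.05). Of 9 oligosaccharyltransferase genes 7 rose and none fell, all below 1.5-fold, with Rpn2 highest at 0.45 ± 0.04. Of 22 translocon and signal peptidase genes 12 rose and 4 fell, from Sec61a2 (0.60 ± 0.06) to Tram2 (−1.40 ± 0.13). Glycan trimming and calnexin cycle genes had 5 of 10 higher and 2 lower, and COPII genes 8 of 14 higher and 2 lower, among them Sec16a (0.97 ± 0.05) and Sec13 (−0.40 ± 0.05). Mbtps2, Prdx4, Ssr4, Magt1 and Ubqln2, which RefSeq places on chromosome X, had no count in any library. Whether genes of chromosome X were counted at all was not tested, so a 0 here may not mean absent mRNA.

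**Figure D5:**
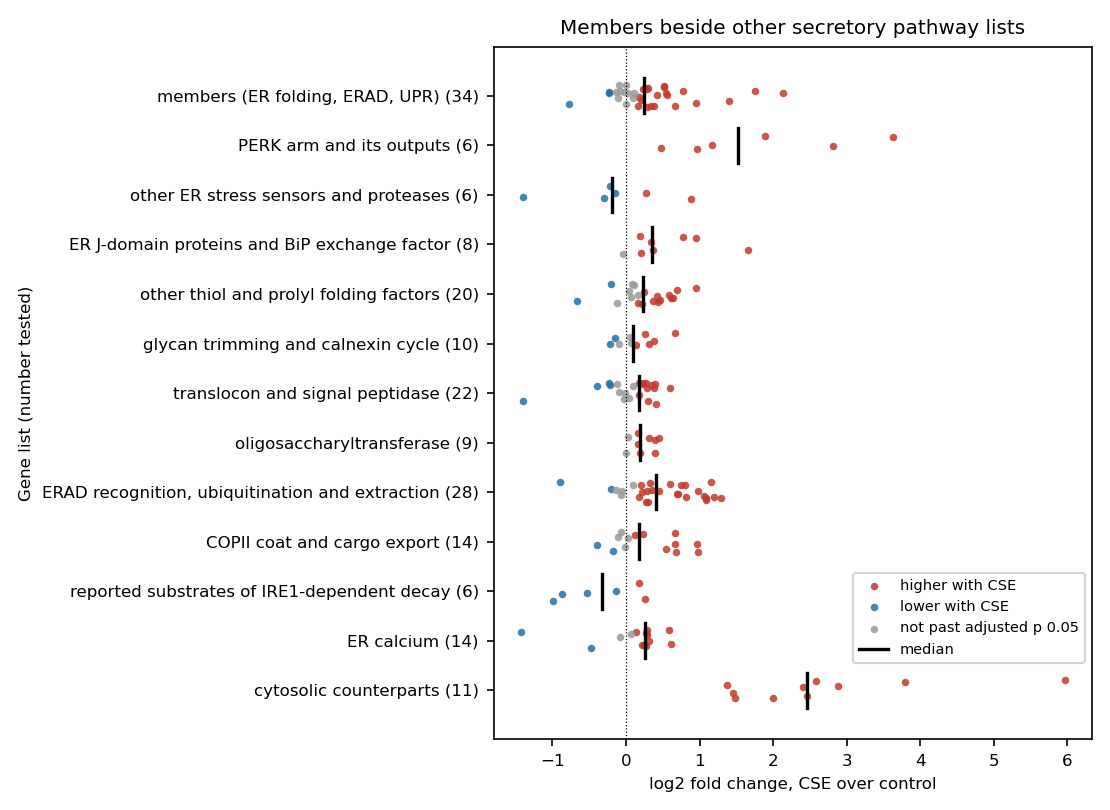
Log2 fold change of CSE over control for tested genes of the members and of further fixed lists, 1 point per gene, coloured by call (red higher, blue lower, grey not past an adjusted p of 0.05), with the list median as a black bar and the number tested in parentheses. Hspa1a, which had no control count, is left out of the points. The members and most secretory pathway lists centre between 0 and 0.5, while the PERK arm and the cytosolic counterparts lie to their right.

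Chaperones outside the ER rose further. All 11 genes of a list of cytosolic and mitochondrial chaperones were called higher (background 36.3%). The lowest was Hspa4 at 1.37 ± 0.05, and the median was 2.47. It was the same with Hspa1a, which had 77 counts with CSE and none in the control, entered as at least 24.4-fold higher, the ratio to 3 counts over the control group. Hspa8, Hsp90aa1, Hspa1a and Hspa1b have near-identical copies in the genome, so their levels are uncertain. Hsp90ab1, the cytosolic relative of Hsp90b1, rose by 1.99 ± 0.04, and the ratio of Hsp90ab1 to Hsp90b1 was 2.505 times as high with CSE. Hsph1, a cytosolic relative of Hyou1, rose by 3.80 ± 0.07, and the ratio of Hsph1 to Hyou1 was 10.9 times as high. In both ratios the CSE and control libraries did not overlap (exact permutation p = 0.1), in pairs chosen after their values were seen.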

How the data were processed

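RNA of 6 libraries was sequenced, 3 of BMSCs given 3% CSE for 6 h and 3 of control cells, grouped by their titles. The authors deposited raw read counts per gene symbol, whole numbers with no normalization. HISAT2 2.0.4 and the build Rnor_6.0 are named, with no role, per the submitters' processing notes. How the reads were counted, with which strand setting and annotation, was not given in the sources used here, so reads of overlapping, antisense or near-identical genes may be misassigned.

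Of 21252 genes with a count, filterByExpr kept 13390. Library totals were 15958621 to 22589327 counts, and the limit of 3 counts covers counting error only. CSE was compared with control by edgeR 4.0.16 (R 4.3.3) with TMM factors and the quasi-likelihood F test, 2-sided, p-values adjusted by Benjamini-Hochberg over the 13390 genes and called at 0.05. The SE is the log2 fold change divided by the square root of F. Steps were tested on simulated counts. Alternatives were other scalings, no filter, DESeq2 1.42.0, limma-voom 3.58.1, a replicate block, a test against a 1.2-fold change, and leaving out each library. Members, lists and pairs were chosen with earlier results of these data known. All 35 members are named, and of the other lists up to 3 genes by smallest p and the extremes among those called. A few genes outside this rule (Sec24a, Ssr2, Eif2ak3, further markers, the genes listed at 0 or with near-identical copies, and genes with an element) are named for their relation to a member, after their values were seen. Chi-square per degree of freedom between replicates was 3.24 to 5.74, so no pair agreed within sampling noise. A promoter window and a marker gene are not reported here.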

Additional observations from a re-analysis of the deposited data

How the results depend on the processing

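Every one of the 21 rises and 3 falls was also called with RLE factors, without the filter, with DESeq2, with limma-voom and with the replicate block. With the replicate block 21 members were higher and 3 lower (median 0.24), as without the filter and with limma-voom, and the counts were 23 and 3 with RLE factors and 22 and 3 with DESeq2 (medians 0.26). No pairing by replicate number was seen. Deviations of same-numbered libraries correlated at 0.020, −0.027 and 0.00094 over 13390 genes, and those of differently numbered ones at −0.078 to 0.086. Such correlations cannot exclude a shared culture or animal with a small effect. Upper-quartile factors gave 16 higher and 8 lower with a median of 0.11, and total counts alone 15 and 10 with a median of 0.0557. Against a 1.2-fold change 13 members were higher and 1 (Edem2) lower (all genes 27.8% and 29.7%). Leaving out each library in turn gave 19 to 22 higher, 3 to 4 lower and medians from 0.23 to 0.29. Signs turned in 8 members, with log2 fold changes from −0.03 to 0.18 in the edgeR fit with TMM factors. With upper-quartile factors these were Atf6 (−0.11), Hspa13 (−0.13), Erp29 (−0.0208), Sel1l (−0.0381) and Derl1 (−0.13). With total counts alone they were Atf6 (−0.16), Hspa13 (−0.19), Erp29 (−0.0725), Txndc5 (−0.0257), Sel1l (−0.0898), Derl1 (−0.18) and Derl2 (−0.0121). Without the filter Hspa13 (−0.0035) and Derl1 (−0.0015) turned. With a library left out, Hspa13 ranged from −0.0577 to 0.0385, Pdia5 from −0.10 to 0.0604 and Derl1 from −0.0406 to 0.0275. The cause was not tested, beyond the common shift that a scaling gives all genes. In all, 14 members kept sign and side of the threshold under each of 14 alternatives. Counts of 3 libraries per group limit the precision for low genes such as Pdia5, Ero1lb, Edem2 and Sdf2l1.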

Other observations

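Genes that are not on the list but carry an ERSE in their RefSeq promoter window numbered 13, of which 8 were tested. Dnajc3, which encodes a BiP co-chaperone, rose (0.78 ± 0.05), and so did Zfand2a, the gene of a proteasome-linked zinc finger protein induced by arsenite and heat (7.30 ± 0.07, edgeR adjusted p = 3.5e-21). Ankmy2, Birc5, Pan2 and Zfp57 fell, and Hnrnpa3 and Ppm1l did not pass. Of 15 such genes with an ERSE-II, 8 were tested, and 5 rose and 2 fell (background 36.3% and 37.5%). The rises included Dnajb11, another ER J-domain gene (0.35 ± 0.05), and Nucb1, a calcium-binding protein of the Golgi (0.61 ± 0.04).

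Reported substrates of IRE1-dependent mRNA decay, a second activity of the protein that Ern1 encodes, were divided. Among 6 tested, 2 rose and 4 fell (37.5% of all genes were called lower), with a median of −0.33. Scara3 fell from 19.6 ± 0.311 to 9.84 ± 0.169 CPM and Pdgfrb from 378 ± 6.39 to 207 ± 12.8 CPM (SD, n = 3, edgeR adjusted p = 1.9e-08 and 4.6e-11). Bloc1s1, the substrate most often used as a readout, was at 24.6 ± 1.00 CPM with CSE and at 20.5 ± 4.09 CPM in the control (log2 0.26 ± 0.11, edgeR adjusted p = 0.042). Of 14 ER calcium genes 10 rose and 2 fell (background 36.3% and 37.5%). The calcium release channel gene Itpr1 fell from 349 ± 2.46 to 129 ± 9.54 CPM (SD, n = 3, log2 −1.43 ± 0.05, edgeR adjusted p = 1.3e-13), whereas its paralog Itpr3 rose by 0.59 ± 0.05.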
